A study of Mus musculus with 4 samples.

Results

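Late erythroblasts with high haemoglobin were examined in 4 single-cell RNA-seq libraries of mouse bone marrow. The cells were chosen by their own measured counts. A member held at least 20% of its unique molecular identifiers (UMIs, one per captured RNA molecule) in the adult haemoglobin genes Hba-a1, Hba-a2, Hbb-bs and Hbb-bt, at least 2 UMIs of Alas2 and no more than 1 UMI of Adipoq, a gene of marrow reticular and fat cells. This rule selected 590 of 9795 cells. The study sorted tdTomato-positive stromal cells from femurs of mice that carried Cxcl12-iCreER, a tamoxifen-inducible Cre driven by a Cxcl12 BAC transgene, and the Cre reporter R26R-tdTomato. In the ABL group the marrow of the right femur had been removed mechanically, and in the CONT group the left femur was the untreated contralateral control. Both groups had received tamoxifen 7 days before the ablation, and cells were taken 7 days after it. Each group had 2 libraries. Replicate 1 was made with Chromium chemistry version 2 from pooled mice and replicate 2 with version 3, so replicate and chemistry cannot be told apart. The ages of the mice were not given in the sources used here. The sort was aimed at stromal cells, and the shares given below describe the erythroid cells found in it.

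Erythroblasts are the nucleated precursors of red cells. While they divide and shrink they fill with haemoglobin, a tetramer of alpha and beta globin chains that each hold a haem group, and they then condense and expel the nucleus and clear mitochondria and ribosomes. Haem is built by a chain of enzymes, of which Alas2 catalyses the first and Fech the last step in erythroid cells.

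The stretches of DNA just before the starts of the genes that the selection and the label rest on are shown first, because these genes define the cells. They are taken from RefSeq on the GRCm38.p6 build, each as the 120 bases before the annotated start, written 5′ to 3′ on the strand of the gene. Capitals mark 4 motifs searched on both strands. The first is CACCC, whose form on the opposite strand is GGGTG. The second is CCAAT, whose form on the opposite strand is ATTGG. The third is TATAA, whose form on the opposite strand is TTATA. The fourth is GATAA, whose form on the opposite strand is TTATC. The copies of the first motif adjoin each other in Alas2, and a copy of the second on the opposite strand adjoins one on the gene strand in Hbb-bt, without overlap.
Hbb-bs, chr7:103827929-103828048, minus strand: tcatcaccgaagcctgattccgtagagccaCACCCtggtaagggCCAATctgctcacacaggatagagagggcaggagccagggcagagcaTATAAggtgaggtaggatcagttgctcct
Hbb-bt, chr7:103813924-103814043, minus strand: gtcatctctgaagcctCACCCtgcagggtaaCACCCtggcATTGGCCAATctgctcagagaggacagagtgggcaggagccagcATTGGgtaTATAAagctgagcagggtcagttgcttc
Hba-a2, chr11:32296372-32296491, plus strand: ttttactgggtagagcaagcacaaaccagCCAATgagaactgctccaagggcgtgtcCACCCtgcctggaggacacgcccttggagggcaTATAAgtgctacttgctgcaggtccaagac
Alas2, chrX:150547297-150547416, plus strand: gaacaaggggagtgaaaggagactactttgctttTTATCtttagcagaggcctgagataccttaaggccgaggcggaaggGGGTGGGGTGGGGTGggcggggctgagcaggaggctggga
Bpgm, chr6:34476236-34476355, plus strand: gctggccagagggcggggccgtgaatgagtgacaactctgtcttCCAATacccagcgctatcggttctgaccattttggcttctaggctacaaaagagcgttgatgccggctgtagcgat

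The 3 globin sequences each held the motif CACCC, the motif CCAAT and the motif TATAA. The first, CACCC, is the core of the site known for Klf1, the erythroid Kruppel-like factor. Across 32851 such windows in the RefSeq table, 31.7% held CACCC, 21.3% CCAAT, 11.8% TATAA and 10.5% GATAA, and 0.688% held the first 3 together. Alas2 held the reverse of CACCC at 3 places and the reverse of GATAA, the core letters bound by Gata1, at 1 place. Bpgm held CCAAT alone. A match to these letters is a description of the sequence only. The window of Hba-a1 shared a run of 117 of its 120 bases with that of Hba-a2, and the annotated transcripts of these copies matched over 96.9% of the shorter one. How reads were split between Hba-a1 and Hba-a2 is therefore uncertain. Hbb-bs and Hbb-bt matched over 88.9% of the shorter transcript.

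CONT replicate 1 held 389 members among 3419 cells, which was 11.4% (exact 95% interval 10.3 to 12.5). ABL replicate 1 held 127 of 1438 cells, or 8.83% (7.42 to 10.4). CONT replicate 2 held 47 of 2397 cells, or 1.96% (1.44 to 2.60). ABL replicate 2 held 27 of 2541 cells, or 1.06% (0.701 to 1.54). Both replicate 1 shares lay above both replicate 2 shares, and within each replicate the ABL library was lower. The difference was -2.55 percentage points in replicate 1 and -0.898 in replicate 2, a mean of -1.72 ± 1.17 (SD, n = 2 differences within a replicate number). With no UMI floor the differences were -0.980 and -0.944, a mean of -0.962, so the size in replicate 1 depended on that floor. Whether the replicate 2 libraries come from the same mice is in doubt, as the Xist counts below show. With 2 libraries against 2, an exact two-sided permutation test cannot give a p below 0.3333. The intervals cover counting error only. The libraries summed to 44784072, 22889380, 40486876 and 41536563 UMIs in the order above.

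Some properties of the libraries bear on all that follows. No UMI of Xist, the X-inactivation RNA of female cells, was found in the 27 members of ABL replicate 2, while Xist stood at 662 CPM in CONT replicate 1, 704 in ABL replicate 1 and 750 in CONT replicate 2. Here and below CPM means UMIs per 1000000 of the UMIs outside the 6 genes of the rule. The cells of ABL replicate 2 outside the erythroid classes gave the same reading, with a UMI of Xist in 2 of 2493 cells against 1626 of 2343 in CONT replicate 2. The Y-linked gene Ddx3y was at 23.9, 16.5, 14.7 and 42.5 CPM and Eif2s3y at 30.03, 7.09, 18.9 and 63.8 CPM in CONT replicate 1, ABL replicate 1, CONT replicate 2 and ABL replicate 2. Contralateral femurs of the same mice would be alike in Xist, so these values go against reading the replicate 2 libraries as such a pair, and what a difference within replicate 2 compares is in doubt. ABL replicate 2 thus stood apart from the other 3 libraries, and each result is given with its value in both replicates. No cell barcode of a member was shared as a member between libraries, and of 5 cell barcodes shared between the replicate 1 libraries 1 was a member in CONT.

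Free RNA differed as well. Among droplets with 300 UMIs or fewer, taken as empty, haemoglobin made up 15.003% of the UMIs (CONT replicate 1), 8.48% (ABL replicate 1), 2.95% (CONT replicate 2) and 0.855% (ABL replicate 2). The cells with at least 2 Adipoq UMIs, which do not make haemoglobin, had a median share of 1.21%, 0.560%, 0.0204% and 0% in the same order. These medians lay far below the threshold of 20%. Of the cells that met it, 3 failed on Alas2, all in CONT replicate 1, and 47, 8, 6 and 3 cells met it and failed on Adipoq. Just inside the threshold, the lowest members stood at 20.1%, 20.5%, 20.5% and 20.2% haemoglobin, and the highest otherwise eligible cells just outside stood at 18.7%, 16.9%, 15.4% and 17.0%.

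The haemoglobin share, which chose the cells, had a median of 72.5% (CONT replicate 1), 80.4% (ABL replicate 1), 58.3% (CONT replicate 2) and 59.0% (ABL replicate 2) over the members. In the first of these libraries it ranged from 20.1% to 92.5%. ABL was higher by 7.95 percentage points in replicate 1 and by 0.632 in replicate 2. With a threshold of 10% haemoglobin in place of 20%, the difference was 8.86 in replicate 1 and -8.46 in replicate 2, so its direction in replicate 2 depended on the threshold. No replicate 2 member reached 80%, while 126 members of CONT replicate 1 (32.4%) and 65 of ABL replicate 1 (51.2%) did. The cell filter differed between the chemistries. Cells needed at least 500 genes in replicate 1 and 1000 in replicate 2, and the replicate 1 members at or above 80% had a median of 626 genes in CONT and 671 in ABL.

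**Figure D1:**
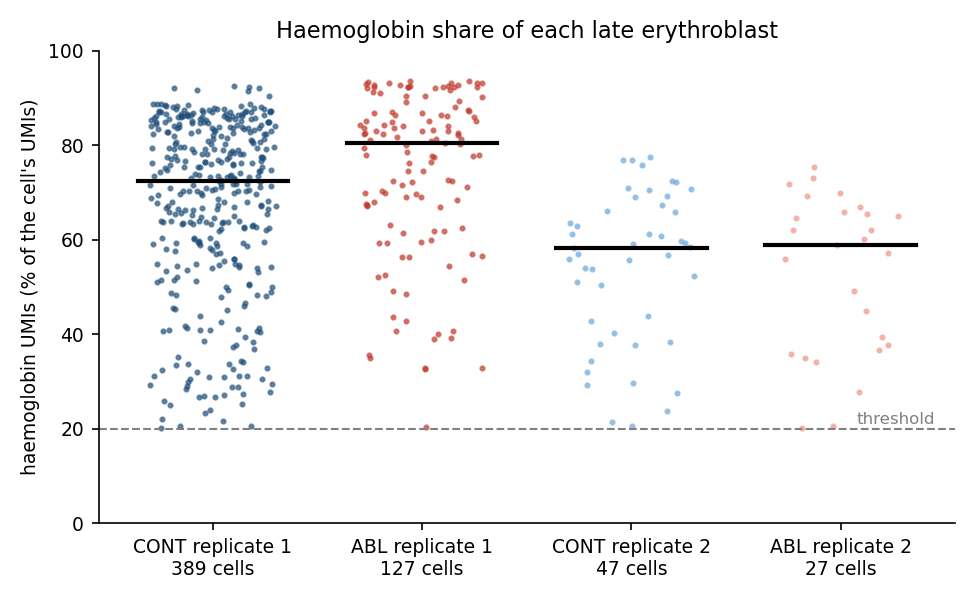
Haemoglobin UMIs as a percentage of each late erythroblast's UMIs, by library; each point is a cell, the black lines are medians and the dashed line is the threshold of 20%. Members above 80% were found in the replicate 1 libraries alone.

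The makeup of the haemoglobin itself was described in each library. Alpha globins made up 50.6% of the members' haemoglobin UMIs (CONT replicate 1), 52.4% (ABL replicate 1), 39.5% (CONT replicate 2) and 36.4% (ABL replicate 2). Hba-a2 took 30.1%, 36.5%, 17.8% and 16.7% of the alpha UMIs in these libraries. Both shares separated the replicates, and the ABL and CONT libraries of a replicate lay nearer to each other than to those of the other replicate. Replicate and chemistry cannot be told apart, and the assignment of reads to the alike genes Hba-a1 and Hba-a2 is uncertain. The part of either in the alpha shares was not tested. Hbb-bt, which had fewer UMIs than the other adult beta globin Hbb-bs, took 20.2%, 21.1%, 22.0% and 21.4% of the beta UMIs, a range of under 2 percentage points. The embryonic globins Hbb-bh1, Hbb-y and Hba-x were between 0 and 6.31 CPM in every library. The theta globin Hbq1b, the other adult alpha-like gene that was well detected, stood at 418, 437, 221 and 207 CPM.

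Bpgm, a marker of late erythroblasts that the rule did not use, makes the 2,3-bisphosphoglycerate that lowers the oxygen affinity of haemoglobin. It was detected in 75.1% (CONT replicate 1), 76.4% (ABL replicate 1), 72.3% (CONT replicate 2) and 63.0% (ABL replicate 2) of the members. Cells with at least 2 Adipoq UMIs, in which it would be background, had a Bpgm UMI in 15.6%, 17.1%, 8.30% and 7.76% of cases. The median depth of the members was 10251, 12566, 22635 and 12966 UMIs against 4983, 7280, 13009 and 7735 in the Adipoq cells. Its level in members was 1141 CPM (exact Poisson interval 1087 to 1197) in CONT replicate 1 and 2370 CPM (2226 to 2522) in ABL replicate 1. It was 387 CPM (333 to 447) in CONT replicate 2 and 250 CPM (184 to 332) in ABL replicate 2. The ABL library was the higher one in replicate 1 and the lower one in replicate 2.

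The reporter transcript itself was low in members. tdTomato gave a UMI in 22.1%, 23.6%, 12.8% and 29.6% of members, compared with 92.0%, 91.7%, 97.7% and 95.7% of the cells with at least 2 Adipoq UMIs, in CONT replicate 1, ABL replicate 1, CONT replicate 2 and ABL replicate 2. Its level was 95.5, 163, 14.7 and 484 CPM in members and 526, 586, 953 and 894 CPM in empty droplets. Members hold RNA of their own besides free RNA, so a level below that of empty droplets cannot tell whether the transcript is background. Its source in members was not tested. In ABL replicate 2, 91 UMIs of tdTomato fell to 3 UMIs once 5 members with RNA of other cell types were left out.

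Those droplets with RNA of other cell types were counted in each library. Marker genes of mesenchymal, neutrophil, monocyte, B, T and NK, endothelial and megakaryocytic cells were summed per member, and a member with more than 3 times its library's median was called a mixed droplet, a threshold set after seeing the data. The median was 72 and 73 marker UMIs in CONT and ABL replicate 1 and 5 in each library of replicate 2. Mixed droplets numbered 33 of 389 in CONT replicate 1 (8.48%, 5.91 to 11.7), 4 of 127 in ABL replicate 1 (3.15%, 0.865 to 7.87), 0 of 47 in CONT replicate 2 (which allows up to 7.55%) and 5 of 27 in ABL replicate 2 (18.5%, 6.30 to 38.1). They carried 76.9%, 32.9%, 0% and 92.6% of the marker UMIs of their libraries. A doublet caller marked 12, 1, 0 and 0 members. It called 2.22%, 1.18%, 0.0417% and 0.551% of all cells and in CONT replicate 2, with 1 cell called, cannot be relied on.

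The 11 neutrophil markers summed to 73734 (CONT replicate 1), 20793 (ABL replicate 1), 198 (CONT replicate 2) and 165 CPM (ABL replicate 2) in members. The empty droplets held 145780, 90177, 19123 and 11700 CPM of them. S100a8 led the list in both libraries of replicate 1, and Elane and Ly6g were at 0 in both libraries of replicate 2. Without the mixed droplets the sums were 19236, 16464, 198 and 178 CPM. The 11 mesenchymal markers summed to 1881, 9602, 246 and 4443 CPM, led by Cxcl12, Spp1, Cxcl12 and Col3a1, and to 1818, 4984, 246 and 405 CPM without the mixed droplets. The 10 monocyte and macrophage markers, led by Lyz2 in 3 libraries, summed to 2982, 1692, 18.9 and 2078 CPM and to 1203, 1476, 18.9 and 56.9 CPM without them. The B lineage list summed to 179, 125, 6.31 and 106 CPM in members, the T and NK list to 88.0, 37.8, 0 and 0 CPM, the endothelial list to 82.6, 7.09, 2.10 and 282 CPM and the megakaryocyte list to 47.8, 96.9, 16.8 and 69.1 CPM.

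**Figure D2:**
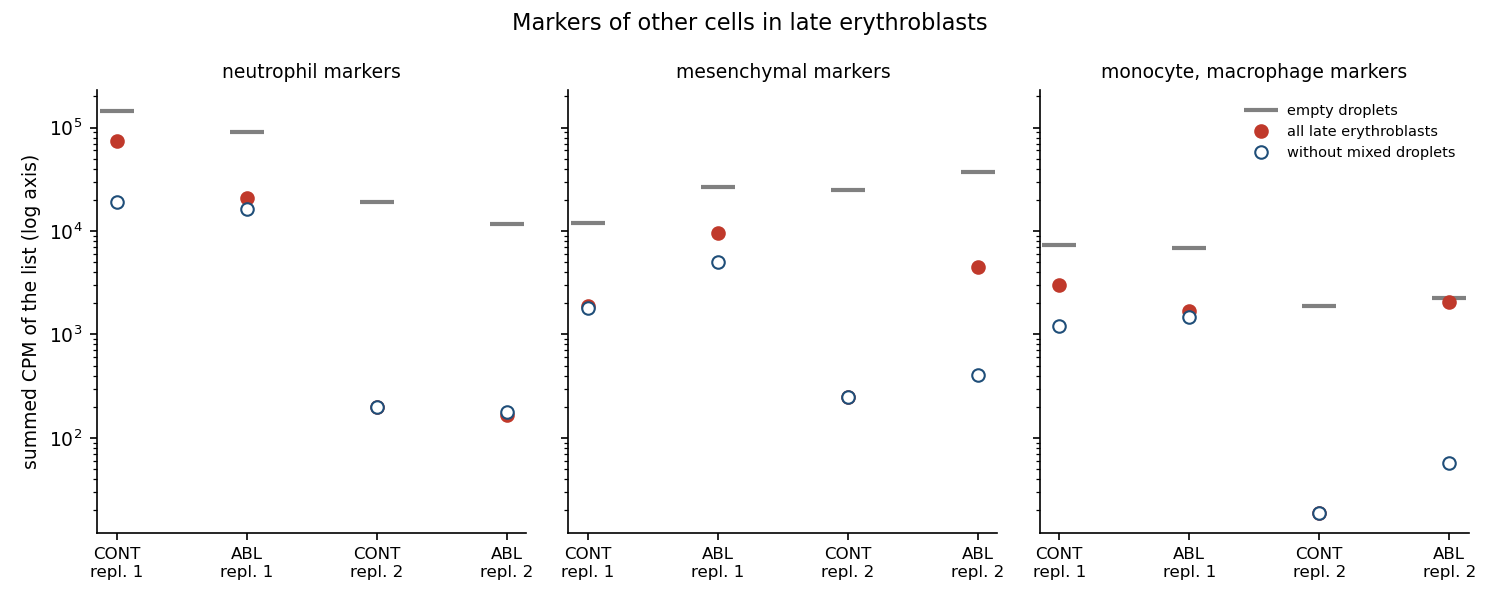
Summed level of 3 marker lists of other cell types, in CPM on a log axis, in empty droplets (grey bars), in all late erythroblasts (filled points) and without mixed droplets (open points), by library. The neutrophil list in CONT replicate 1 dropped from 73734 to 19236 CPM, and the mesenchymal list in ABL replicate 2 from 4443 to 405 CPM, when mixed droplets were left out.

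A higher haemoglobin share came with fewer molecules of all other genes in all 4 libraries, and with more haemoglobin molecules at every step in all 4, once the mixed droplets of ABL replicate 2 were left out. In CONT replicate 1, where each of 4 ranges of the share (20 to under 40%, 40 to under 60%, 60 to under 80%, and 80% or more) held at least 46 cells, the median member had 4112, 5599, 6920 and 8215 haemoglobin UMIs and 9825, 5576, 2821 and 1289 UMIs outside the rule's genes. In ABL replicate 1 the haemoglobin UMIs went from 5132 over 6568 and 8409 to 11129, and the others from 10248 over 6185 and 3583 to 1524. CONT replicate 2 went from 6832 over 11158 to 14774 haemoglobin UMIs and from 16011 over 8626 to 6885 others in its 3 filled ranges, which held 11, 17 and 19 cells. ABL replicate 2, with 9, 5 and 13 cells, had 4858, 9482 and 8208 haemoglobin UMIs and 9789, 7555 and 3523 others. Without its 5 mixed droplets, which lay in the first 2 ranges and left 6, 3 and 13 cells, the haemoglobin UMIs were 4761, 6146 and 8208. The number of genes detected fell from 2529 to 626 across the ranges of CONT replicate 1. Both counts are parts of the share that set the ranges, so their course over the ranges is partly fixed by that cut. These ranges are cuts of the measure that chose the cells, not cell types, and what follows over them is a description without a test.

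**Figure D3:**
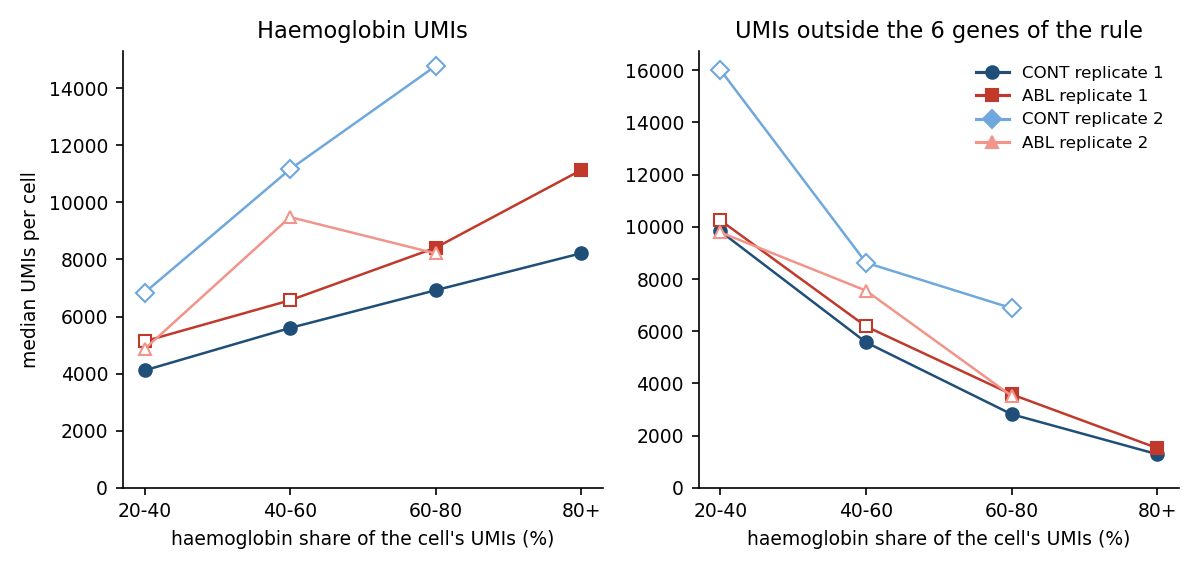
Median UMIs per late erythroblast in the 4 haemoglobin genes (left) and outside the 6 genes of the rule (right), by range of haemoglobin share and library; open symbols stand for fewer than 20 cells. The UMIs outside the rule's genes fell from 9825 to 1289 across the ranges of CONT replicate 1.

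Because the transcripts outside haemoglobin were fewer in total at high haemoglobin share, a higher CPM there means a larger part of a smaller total. Of 1390 genes with at least 100 CPM in CONT replicate 1, 23.5% rose at every step of the share and 21.9% fell at every step, with a median log2 ratio of last to first range of -0.41. Without the mixed droplets the shares were 25.3% and 24.7% of 1432 genes. Markers of other cells also differed between the ranges of this library. The neutrophil list summed to 75445, 123650, 42071 and 40721 CPM, and to 9335, 13519, 22497 and 39941 CPM without mixed droplets, where 8 of the 8 markers with 100 CPM rose at every step. The mesenchymal list summed to 1654, 1397, 1802 and 3761 CPM, and to 908, 1640, 1848 and 3783 CPM without mixed droplets, where 4 of 5 rose at every step. The part of these markers in the trends was not tested.

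The genes of organelle clearance, ubiquitin transfer and enucleation took a growing part of the other transcripts. In CONT replicate 1, 11 of the 19 genes on this list rose at every step and 0 fell, and the list summed to 4893, 7227, 13957 and 46580 CPM. Mkrn1, a ubiquitin ligase, went from 566 over 922 and 2137 to 9538 CPM. Bnip3l, the receptor that marks mitochondria for autophagy, went from 402 over 668 and 1362 to 4897 CPM. Xpo7, a nuclear exporter needed for nuclear condensation, stood at 49.8, 42.7, 378 and 4033 CPM. Trim58, which takes part in the removal of the nucleus, was at 0 UMIs in the first range and at 122 CPM in the last.

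The other libraries can be read beside these values. In ABL replicate 1, Mkrn1 went from 508 over 772 and 2436 to 11151 CPM. It was 490, 972 and 3472 CPM in CONT replicate 2 and 560, 1162 and 1789 CPM in ABL replicate 2 over the 3 ranges that these libraries fill. In ABL replicate 2, with ranges of 9, 5 and 13 cells, Xpo7 was at 302, 45.6 and 97.2 CPM and Bcl2l1 at 162, 68.4 and 97.2 CPM. Without mixed droplets Xpo7 was at 0, 80.9 and 97.2 CPM there and Bcl2l1 at 15.5, 40.5 and 97.2 CPM, from 5 UMIs or fewer of each in a range.

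Bpgm was also higher at higher shares, in ABL replicate 2 only without mixed droplets. It was 129, 371, 752 and 6624 CPM in CONT replicate 1 and 60.5, 218, 746 and 9211 CPM in ABL replicate 1. In CONT replicate 2 it was 45.6, 185 and 1094 CPM and in ABL replicate 2 194, 365 and 253 CPM, or 46.5, 162 and 253 CPM without mixed droplets, from 3, 4 and 13 UMIs. Between 60 and under 80% haemoglobin the replicate 1 libraries stood at 752 (CONT) and 746 CPM (ABL). In both ranges below 60% ABL was the lower one, and at 80% or more it was the higher one. Over all members ABL was at 2370 and CONT at 1141 CPM. The part of the haemoglobin share in that difference was not tested. The share of members with a Bpgm UMI in CONT replicate 1 was 47.8%, 63.6%, 70.2% and 96.8%. Bcl2l1, the survival protein that erythropoietin signalling induces, rose from 33.2 over 93.5 and 282 to 1721 CPM in that library. Tmcc2 ended at 9863 CPM after 218 CPM in the first range.

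The S phase genes took a shrinking part. Of 15 S phase genes in CONT replicate 1, 9 fell at every step and 0 rose, and the list summed to 6002, 6212, 4438 and 527 CPM. Pcna, the sliding clamp of DNA replication, was at 836, 887, 445 and 40.6 CPM. It was at 726, 1234, 571 and 42.0 CPM in ABL replicate 1, at 1288, 596 and 30.2 CPM in CONT replicate 2 and at 743, 479 and 233 CPM in ABL replicate 2. Mcm3, of the replicative helicase, fell from 236 to 5.80 CPM across the ranges of CONT replicate 1.

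The mitosis genes had another course. In CONT replicate 1 the 16 genes summed to 4752, 6829, 14170 and 5349 CPM, and in ABL replicate 1 to 5792, 6591, 15051 and 2455 CPM. They summed to 12716, 23515 and 28709 CPM in CONT replicate 2 and to 6774, 10755 and 23785 CPM in ABL replicate 2. All 4 libraries therefore had their highest sum between 60 and under 80% haemoglobin, which in replicate 2 was also the last range filled. Ube2c, the ubiquitin-conjugating enzyme of mitotic exit, was at 788, 1552, 4395 and 2996 CPM in CONT replicate 1. The CDK inhibitor Cdkn2d, of the INK4 family, was at 166, 401, 1270 and 191 CPM there, and Cdkn1b, which encodes p27, at 41.5, 90.8, 229 and 551 CPM.

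**Figure D4:**
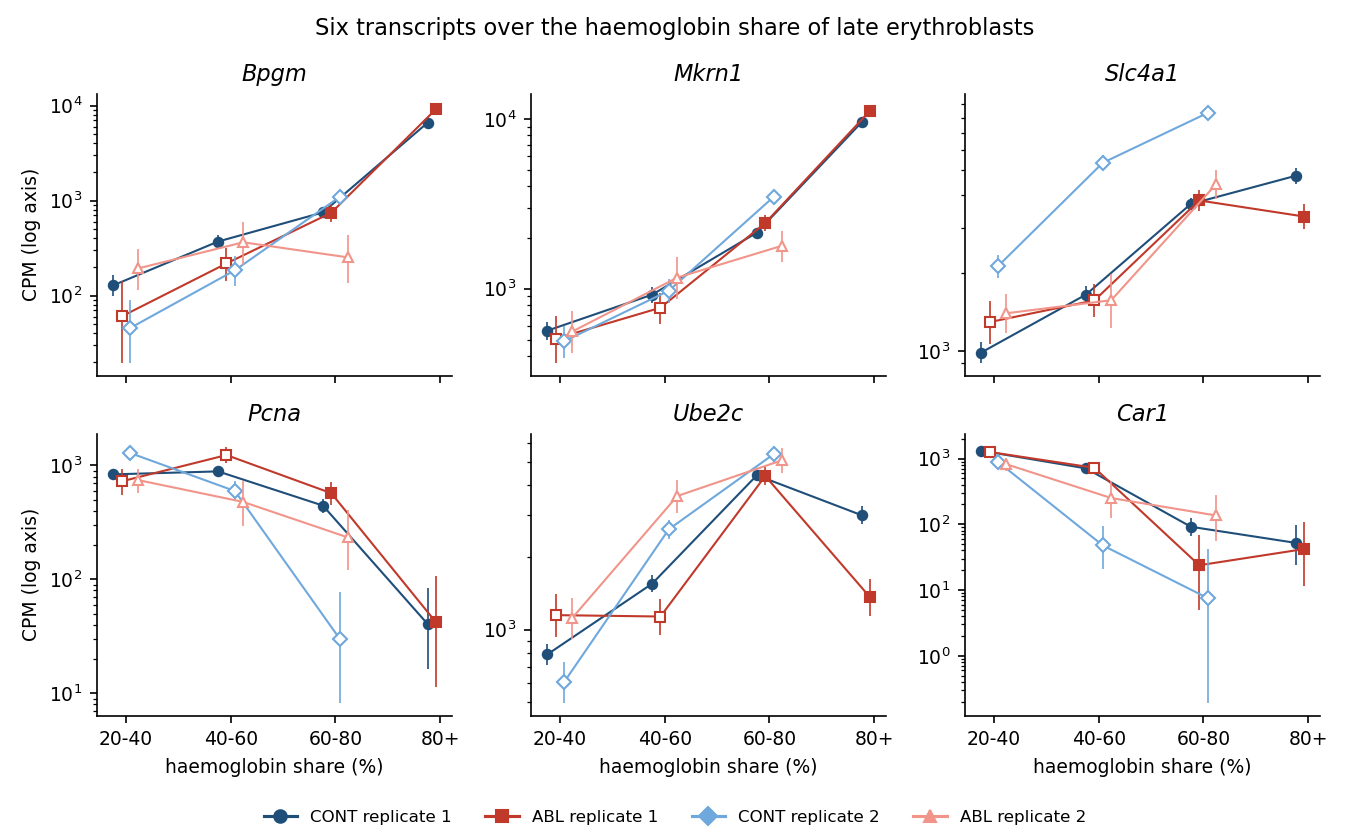
Levels of 6 transcripts in CPM (log axes) by range of haemoglobin share in each library, with exact 95% Poisson intervals as bars; open symbols stand for fewer than 20 cells. Mkrn1 was higher at each step in every library and Bpgm in every library but ABL replicate 2, where it was so only without mixed droplets, Pcna and Car1 ended below their start in each library, and Ube2c was highest at 60 to under 80% in each.

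The label of late erythroblasts thus covered a range. Members with 20 to under 40% haemoglobin still carried Car1, the carbonic anhydrase of earlier erythroid cells, at 1315, 1258, 889 and 818 CPM in CONT replicate 1, ABL replicate 1, CONT replicate 2 and ABL replicate 2. At 60 to under 80% it was 91.7, 23.8, 7.55 and 136 CPM. A UMI of the proliferation gene Mki67 was found in 68.4%, 54.3%, 100% and 88.9% of members, and in 10.7%, 11.7%, 3.00% and 4.04% of the cells with at least 2 Adipoq UMIs, whose median depths are given above. In members with 80% haemoglobin or more it was found in 32.5% (CONT replicate 1) and 24.6% (ABL replicate 1). The early regulators Myb and Kit and the mature-cell enzyme Alox15, a lipoxygenase of reticulocytes, were all low. Myb was at 9.55, 4.73, 0 and 0 CPM and Alox15 at 0 UMIs in each library.

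The membrane skeleton and the haem pathway were higher at 60 to under 80% haemoglobin than below it. The 23 membrane and cytoskeleton genes summed to 7219, 11970, 25596 and 26228 CPM in CONT replicate 1. Slc4a1, the anion exchanger band 3, was at 987, 1654, 3707 and 4764 CPM in that library, at 1294, 1570, 3824 and 3315 CPM in ABL replicate 1, at 2131, 5350 and 8339 CPM in CONT replicate 2 and at 1400, 1572 and 4415 CPM in ABL replicate 2. The 7 haem enzymes other than Alas2 summed to 4736, 6912, 12815 and 13514 CPM there. In ABL replicate 1 both lists were lower in the last range than in the one before, the membrane genes at 20131 after 28499 CPM and the haem enzymes at 11844 after 13726 CPM. In CONT replicate 1 Fech, which inserts iron, rose from 827 over 1234 and 2992 to 4491 CPM. Tmem14c, a porphyrin transporter of the mitochondrion, went the other way in that library, from 1988 over 1825 and 667 to 174 CPM.

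A second view came from erythroid cells with little haemoglobin in the same libraries. These comparison cells had under 20% haemoglobin, no more than 1 Adipoq UMI and at least 4 of 8 early erythroid genes, among them Gata1, Klf1, Epor, Ermap, Rhag, Rhd and Car1. There were 39 (CONT replicate 1), 11 (ABL replicate 1), 7 (CONT replicate 2) and 21 (ABL replicate 2), or 78 in all. Their median depth was 16308, 23356, 49555 and 31703 UMIs and their median haemoglobin share 8.11%, 3.56%, 5.22% and 1.11%. Since the same haemoglobin threshold separates the classes, the ratios between them are a description and were not tested. Markers of other cells also differed between the classes. The mesenchymal list summed to 464, 1405, 95.9 and 284 CPM in the low-haemoglobin cells against 1881, 9602, 246 and 4443 CPM in late cells, with 7 of 11 genes higher in late cells in all 4 libraries and 0 lower. The neutrophil list summed to 22744, 4681, 84.6 and 70.6 CPM against 73734, 20793, 198 and 165 CPM, with 5 of 11 higher and 0 lower. The part of these markers in the ratios below was not tested. Of 1973 genes with at least 100 CPM in either class, 38.9% were higher in late erythroblasts in all 4 libraries and 40.2% were lower in all 4, with a median mean log2 ratio of -0.03 (pseudocount of 10 CPM).

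All 7 haem enzymes were higher in the late cells in all 4 libraries, with a median log2 ratio of 1.61. Alas2 itself belonged to the rule. Fech stood at 2007, 2739, 1551 and 951 CPM in late cells against 323, 351, 237 and 166 CPM in low-haemoglobin cells (CONT replicate 1, ABL replicate 1, CONT replicate 2, ABL replicate 2). Alad, the second enzyme, was at 1494, 1316, 1505 and 1701 CPM against 662, 695, 607 and 538 CPM. The classes did not overlap for either gene. The share of all genes without such overlap was not counted, so this does not set these genes apart.

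Of 9 genes of mitochondrial haem and iron transport, 7 were higher in the late cells in all 4 libraries and 0 were lower in all 4. Slc25a37, the mitoferrin that imports iron, was at 1780, 2106, 4665 and 2455 CPM against 168, 135, 615 and 216 CPM. Of 12 genes of cellular iron uptake and storage 5 were higher and 4 lower in all 4 libraries, which is no common direction. Tfrc, the transferrin receptor, was at 550, 522, 2102 and 1052 CPM against 242, 301, 598 and 384 CPM. Tfr2, another transferrin receptor, was at 11.6, 18.9, 10.5 and 5.31 CPM against 40.1, 65.6, 33.9 and 53.9 CPM.

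The red cell membrane showed 20 of 23 genes higher in late cells in all 4 libraries and 0 lower, with a median log2 ratio of 1.65. Ermap, Rhag and Rhd among them had helped to choose the comparison cells. Epb42, which anchors the membrane to the skeleton, was at 396, 503, 675 and 255 CPM against 40.1, 19.3, 95.9 and 47.5 CPM. Of 16 red cell enzymes and antioxidants, 11 were higher in all 4 and 3 lower. The 3 lower ones were Pklr, Car1 and Sod1. Car1, as well as Gata1, Klf1 and Epor in the lists below, had helped to choose the comparison cells, so their ratios are partly set by that choice. Gpx1, a glutathione peroxidase, was at 11223, 14514, 9073 and 7658 CPM against 2530, 2169, 1501 and 1903 CPM.

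Clearance genes numbered 14 of 19 higher in all 4 libraries and 1 lower, with a median log2 ratio of 1.82. Alox15 had no UMI in either class. The erythroid transcription factors split, with 10 of 17 higher and 3 lower in all 4 libraries. Nfe2 and E2f2 were among the higher ones, with E2f2, which couples the cycle to terminal maturation, at 381, 395, 668 and 324 CPM against 65.9, 84.9, 127 and 65.5 CPM. The lower ones were Myb, Bcl11a, which represses embryonic and fetal globins, and Ldb1, the cofactor that bridges Gata1 complexes. Bcl11a was at 17.1, 7.09, 10.5 and 15.9 CPM against 90.3, 120, 127 and 149 CPM.

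Of 13 genes of erythropoietin signalling 4 were higher and 3 lower in all 4 libraries. Pim1, a kinase induced by Stat5, was at 412, 539, 309 and 255 CPM against 34.4, 23.2, 19.8 and 28.2 CPM. Kit, the stem cell factor receptor, was at 2.05, 0, 0 and 0 CPM against 15.8, 7.72, 45.1 and 55.2 CPM. Of 11 genes of the haem-regulated stress response 4 were higher and 1 lower. Eif2ak1, the haem-regulated kinase HRI, was at 265, 307, 687 and 330 CPM against 48.7, 65.6, 155 and 75.8 CPM, and Ppp1r15a, which reverses its phosphorylation of eIF2, at 890, 1163, 933 and 664 CPM against 86.0, 42.5, 73.4 and 41.1 CPM.

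The cell cycle lists differed. Of 16 mitosis genes 15 were higher in late cells in all 4 libraries, while of 15 S phase genes 3 were higher and 5 lower. All 5 CDK inhibitors were higher in all 4. They summed to 1118, 1241, 1686 and 1121 CPM in late cells, 186, 143, 166 and 112 CPM in low-haemoglobin cells and 606, 494, 541 and 375 CPM in empty droplets. Cdkn2d was at 558, 572, 837 and 632 CPM against 38.7, 19.3, 42.3 and 12.8 CPM. Of 15 interferon-stimulated genes 4 were higher and 0 lower in all 4. That list summed to 3856, 4055, 1560 and 2253 CPM in late cells. It held 2818, 3145, 1422 and 1820 CPM in low-haemoglobin cells and 14185, 12990, 10844 and 4885 CPM in empty droplets. Isg15, a ubiquitin-like modifier, was at 240, 527, 626 and 239 CPM against 27.2, 11.6, 16.9 and 8.99 CPM. Of 16 immediate early and heat shock genes 7 were higher and 3 lower.

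By the fixed rule of size, the 10 genes with the highest mean ratio included Rsad2, Tmcc2, Xpo7, Apol11b, Slfn14, Cdkn2d, Bpgm, Gch1 and Isg15, with mean log2 ratios from 5.13 down to 3.92. Rsad2, known as an interferon-induced antiviral enzyme, was at 431 CPM against 18.6 in CONT replicate 1 and at 532 against 2.82 in CONT replicate 2. Gch1 catalyses the first step in making tetrahydrobiopterin. The 10 with the lowest ratio were Hspe1, C1qbp, Fam132a, Fbl, Lyar, Npm3, Cdk6, Mif, Nhp2 and Hspd1, from -3.96 to -3.31. Hspe1 and Hspd1 form the mitochondrial chaperonin, and Fbl and Nhp2 belong to the small nucleolar particles that modify ribosomal RNA. Hspe1 was at 75.1 CPM against 747 in CONT replicate 1 and at 16.8 against 880 in CONT replicate 2.

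**Figure D5:**
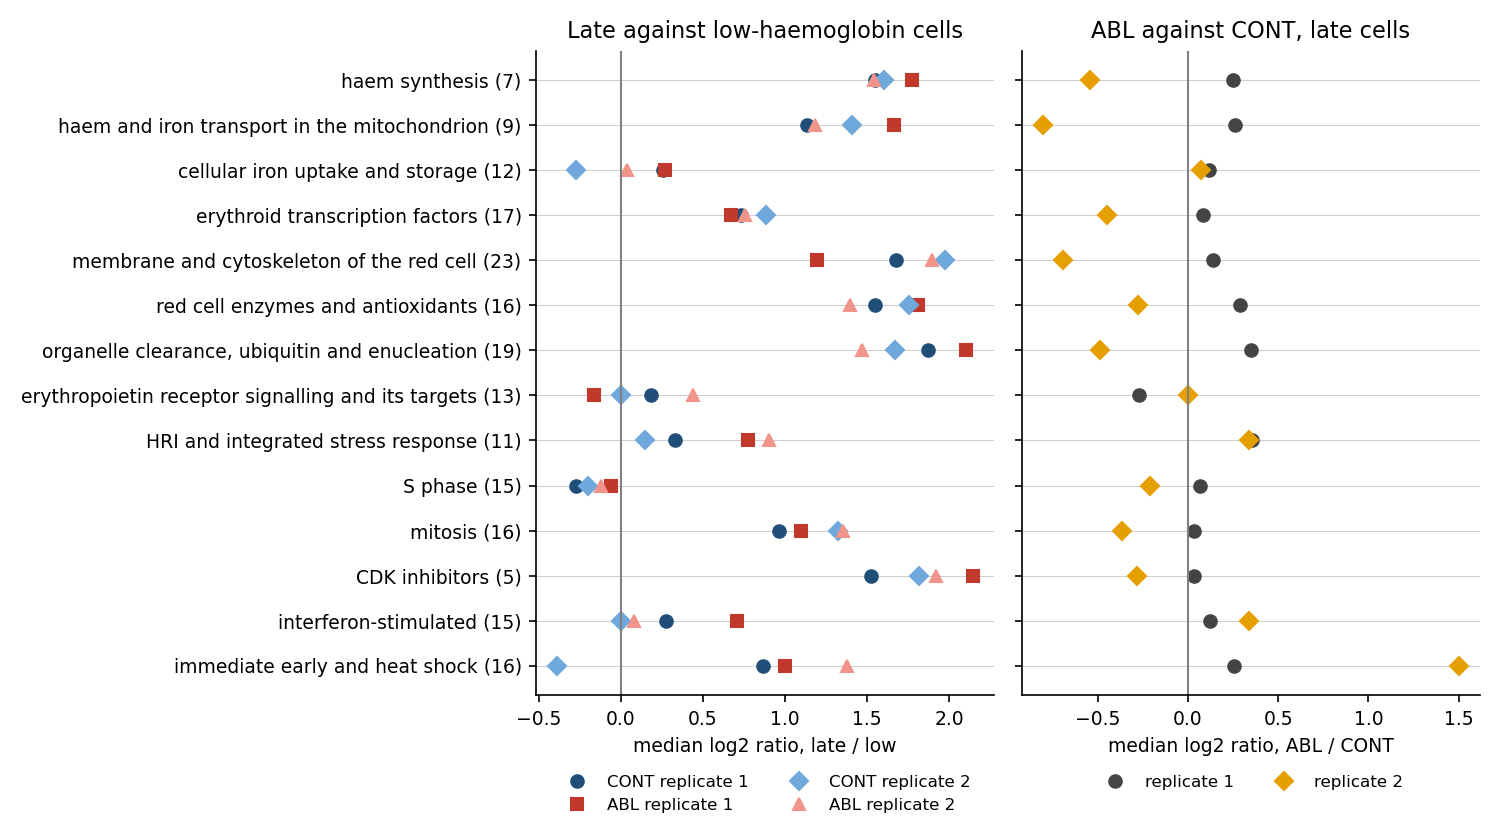
Median log2 ratio of 14 gene lists, without those of globins and of cell type markers (number of genes in brackets, pseudocount of 10 CPM) between late and low-haemoglobin erythroid cells in each library (left) and between ABL and CONT late erythroblasts in each replicate (right). On the left, haem synthesis, membrane, clearance and mitosis were above 0 in all 4 libraries, and on the right 9 lists, haem synthesis among them, were above 0 in replicate 1 and below 0 in replicate 2.

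The comparison of ABL with CONT addresses whether late erythroblasts differ 7 days after marrow ablation. Counts were summed over the members of each library, without the 6 genes of the rule, and fitted in edgeR's quasi-likelihood test with the replicate as a block. Of 4541 genes tested, 0 were higher and 0 lower at an adjusted p under 0.05 (Benjamini-Hochberg), a background of 0% in each direction. At an unadjusted p under 0.05, 59 genes were higher and 11 lower. DESeq2's Wald test on the same counts called 4 genes higher and 0 lower. The fit leaves 1 residual degree of freedom, and the biological coefficient of variation was 40.7%.

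No erythroid list held a called gene. The 7 haem enzymes had a median log2 ratio of -0.08 and the 23 membrane genes of -0.18, beside 0.02 over all genes tested. Within replicates the directions of these 2 lists and of the clearance genes were opposite. The haem enzymes had a median of 0.25 in replicate 1 and of -0.54 in replicate 2, the membrane genes of 0.14 and -0.69, and the clearance genes of 0.35 and -0.49. Not every list did so. The haem-regulated stress response had medians of 0.36 and 0.34, and cellular iron uptake and storage of 0.12 and 0.07. Over the 1534 genes with at least 100 CPM the medians were 0.04 and -0.15. Bpgm had a fitted log2 ratio of 0.26 ± 0.58 (SE; edgeR adjusted p = 0.999). Slc4a1 stood at 2412 CPM in CONT replicate 1 and 2581 in ABL replicate 1, but at 4995 CPM in CONT replicate 2 and 2264 in ABL replicate 2.

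The immediate early and heat shock list summed to 3182, 3705, 2026 and 5437 CPM in CONT replicate 1, ABL replicate 1, CONT replicate 2 and ABL replicate 2, and to 3257, 3470, 2026 and 2516 CPM without the mixed droplets, so that most of the difference within replicate 2 lay in the mixed droplets. Between 60 and under 80% haemoglobin, where ABL replicate 2 had no mixed droplet, the replicate 2 sums were 958 CPM in CONT and 1245 CPM in ABL. Empty droplets held more of this list than the members in every library. They held 10881 (CONT replicate 1), 8356 (ABL replicate 1), 18243 (CONT replicate 2) and 6760 CPM (ABL replicate 2). Fos, of the AP-1 factor, was at 298 and 317 CPM in CONT and ABL replicate 1, and at 39.9 and 516 CPM in CONT and ABL replicate 2. Of the 16 genes of the immediate early and heat shock list, 10 were higher in ABL in replicate 1 (median log2 ratio 0.26) and 15 in replicate 2 (1.502). In the fit 14 of 16 were higher, with a median of 0.82, and 0 were called by edgeR. Of the 1534 genes with at least 100 CPM, 57.0% were higher in ABL in replicate 1 and 42.2% in replicate 2. Mitochondrial UMIs, a sign of RNA quality, made up 2.49%, 2.35%, 2.37% and 4.04% of the members' UMIs outside the rule's genes, in the order CONT replicate 1, ABL replicate 1, CONT replicate 2 and ABL replicate 2. The 8 genes of the monocyte and macrophage list that were tested were all higher in ABL as well, with a fitted median of 2.36, and 0 were called. Over all 10 genes of that list the median was -0.02 in replicate 1, with 5 higher, and 3.12 in replicate 2, with 9 higher. The part of free RNA, of these markers and of the mitochondrial share in the immediate early values was not tested.

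The 4 genes that DESeq2 called were chosen for mention after their values were seen. They were the bone matrix and collagen genes Spp1, Col1a1, Col1a2 and Sparc. Spp1, which encodes osteopontin, was at 35.5 CPM (CONT replicate 1), 5067 (ABL replicate 1), 0 (CONT replicate 2) and 31.9 (ABL replicate 2). Col1a1, of type I collagen, was at 115, 1208, 6.31 and 686 CPM. The ABL library was higher in both replicates for each of the 4. In empty droplets Spp1 was at 228, 3228, 408 and 2220 CPM and Col1a1 at 467, 5786, 364 and 11727 CPM, so the free RNA moved in the same direction. Leaving out the mixed droplets, edgeR called 10 genes higher and 0 lower, all of them genes of the extracellular matrix or bone: Spp1, Col1a1, Bglap, Col3a1, Fn1, Col1a2, Col2a1, Mgp, Sparc and Tnc. Of these, Spp1, Col1a1, Col3a1, Col1a2 and Sparc were among the markers that defined the mixed droplets, so their calls are not independent of that removal. Because that step used these markers, a shift in their ratios is partly built into it. The same step lowered the fitted log2 ratio of Spp1 from 7.11 to 3.97, of Col1a1 from 4.65 to 4.09, of Col1a2 from 3.94 to 2.81 and of Sparc from 3.30 to 1.94. That of Spp1, at 0 UMIs in CONT replicate 2, depends on the prior count and ran from 0.60 without ABL replicate 1 to 12.93 without CONT replicate 1. With 1 library left out, that of Col1a1 ran from 2.95 to 7.28, of Col1a2 from 2.25 to 6.18 and of Sparc from 1.83 to 5.01. Each was lowest without CONT replicate 2 and highest without CONT replicate 1. The fits with 1 library left out, those of Spp1 among them, had no replicate block. Chemistry and ablation are therefore mixed in their ratios. The part of free RNA in these values was not tested.

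The fitted log2 ratio of tdTomato was 2.65 ± 1.15 (SE; edgeR adjusted p = 0.999), with ABL higher in both replicates. It was 0.20 without the mixed droplets, and from 1.47 without ABL replicate 2 to 4.52 without CONT replicate 1. The fits with a library left out had no replicate block, so chemistry and ablation are mixed in them. Whether the ablation acts differently on late and low-haemoglobin erythroid cells could not be fitted, because CONT replicate 2 held 7 low-haemoglobin cells and at least 10 were required.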

How the data were processed

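Cells were taken from femurs of mice in 2 groups of 2 libraries. Per the labels and the study's methods, the authors counted UMIs with Cell Ranger against mm10 with added transgenes. The deposited values are raw counts per gene and barcode, and 28006 features were read. Kept cells had at least 500 genes, at most 20% mitochondrial UMIs and 2700 UMIs (version 2), or 1000 genes, 15% and 4000 UMIs (version 3). Members were summed per library and tested in edgeR 4.0.16 (R 4.3.3) by glmQLFit and glmQLFTest with TMM factors, filterByExpr, Benjamini-Hochberg adjustment and the replicate number as a block; DESeq2 1.42.0 was an alternative. On simulated data with the observed spread, the test missed most genes given a known change, so a gene not called may still differ. Doublets were called in scanpy 1.11.5 and kept.

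The members, gene lists and named genes were chosen with earlier results of these data known. Genes were named if on a list, if called, or by rank: the 10 highest and lowest ratios at 100 CPM or more with the same direction in all 4 libraries. The markers of the cell group, tdTomato, Xist and Y-linked genes were named in every case. Of the listed genes, Ahsp, Ighm and Trbc2 were not matched, and Flvcr1 is named Mfsd7b in the files. The replicate numbers share a chemistry, and same-numbered libraries deviated together (r = 0.47 over 4541 genes, which are not independent replicates). The study describes CONT and ABL as femurs of the same mice and reports a second biological replicate, but the Xist counts of replicate 2 go against shared animals there. With the replicate as a block, the p-values rest on how far the ABL and CONT difference varied between the replicates, and on a spread shared across genes. They do not measure the spread between mice. Some genes of the lists and ranks are not reported here.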

Additional observations from a re-analysis of the deposited data

How the results depend on the processing

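No gene was called higher or lower in ABL under DESeq2 size factors, with the rule's genes kept, at 40% haemoglobin or more, without a UMI floor, without called doublets or at 40 to under 80% haemoglobin. DESeq2's Wald test called 4 genes higher, no filter on low counts 34, and the removal of mixed droplets (chosen after seeing the data) 10. Some of those 10 genes were themselves among the markers that defined the mixed droplets. None of these settings called a gene lower. Leaving out 1 library at a time, without a replicate block, gave from 0 to 0 calls in each direction, the lone library being assumed to vary like the others. The fit with no replicate block called 0 genes higher and 0 lower. Removing members with 5 or more marker UMIs of other cells could not be fitted, since it left 0 cells in both replicate 1 libraries.

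The mean difference in the share of members ranged from -2.55 without replicate 2 to -0.898 without replicate 1, and was -0.962 with no UMI floor. That of the median haemoglobin share ranged from 0.632 without replicate 1 to 7.95 without replicate 2; with at least 10% haemoglobin the mean was 0.199, replicate 2 turning to -8.46. The fitted log2 ratio of Bpgm, 0.26 as reported, was -0.052 at 40% haemoglobin or more, -0.084 without mixed droplets, -0.62 at 40 to under 80% and -0.61 in replicate 2 alone, and ran from -1.72 without ABL replicate 1 to 1.91 without CONT replicate 1. Xist, at 0 UMIs in ABL replicate 2 and so with a ratio that depends on the prior count, was -2.47 in the fit, 0.088 in replicate 1 alone and -6.25 in replicate 2 alone, and ran from -11.93 without ABL replicate 1 to -0.045 without ABL replicate 2. Ddx3y, 0.43 in the fit, was -0.35 in replicate 1 alone and ran from -0.29 without ABL replicate 2 to 1.02 without ABL replicate 1. Eif2s3y, at -0.0077, was 0.066 without called doublets, 0.37 with no replicate block and 1.35 in replicate 2 alone, and ran from -1.83 without ABL replicate 2 to 1.27 without ABL replicate 1. The ratios with a library left out came from fits without a replicate block, so chemistry and ablation are mixed in them. The causes were not tested. The members' summed UMIs were lowest in ABL replicate 2. Replicate 2 members summed to 475709 UMIs outside the rule's genes in CONT and 188162 in ABL, against 1465354 and 423164 in replicate 1.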

Other observations

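Many droplets rich in haemoglobin were not counted as cells. Among barcodes with at least 1000 UMIs and at least 20% haemoglobin, 568 (CONT replicate 1), 80 (ABL replicate 1), 96 (CONT replicate 2) and 45 (ABL replicate 2) failed the cell filter. Of these, 552, 78, 95 and 45 failed for too few genes. They had a median of 317, 325, 323 and 330 genes and a median haemoglobin share of 93.7%, 93.7%, 93.0% and 89.5%, at a median of 8080, 8384, 15539 and 9734 UMIs. At least 1 Alas2 UMI was found in 531, 78, 88 and 44 of them. They outnumbered the members, of which there were 389, 127, 47 and 27, in every library but ABL replicate 1.

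The most abundant transcripts of the members outside the rule's genes included Malat1, a nuclear RNA, at 15996, 13624, 24385 and 16374 CPM, and the ferritin heavy chain Fth1 at 10757, 10873, 10916 and 15529 CPM, in CONT replicate 1, ABL replicate 1, CONT replicate 2 and ABL replicate 2. Malat1 and the histone gene Hist1h2ap were chosen for mention after their values were seen. Hist1h2ap was at 4750, 7333, 19022 and 9736 CPM. Malat1 was at 3617, 3705, 4735 and 2566 CPM in the low-haemoglobin erythroid cells of the same libraries.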
